A study of Mus musculus with 9 samples.

Results

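The genes described here encode the subunits of the mitochondrial respiratory chain and of ATP synthase, read here in the mouse myoblast line C2C12, an established cell line. They were taken by a rule on gene names, which was chosen with earlier results of these data known. It covers every probe set for which the array's annotation gives exactly 1 gene symbol, where that symbol is of a set kind. The symbol begins with Nduf, Uqcr or Atp5, or is Sdha, Sdhb, Sdhc or Sdhd, or names a nuclear-encoded cytochrome oxidase subunit (Cox4 to Cox8). A probe set is a small group of probes on the array that reads 1 stretch of a gene, often 1 exon. The rule took 82 of 22264 gene symbols, with 717 of the 1195555 probe sets on the array. By complex there were 37 symbols for complex I, 4 for complex II, 7 for complex III, 15 for complex IV and 15 for complex V. The 4 others were Ndufaf1 and Ndufaf2, assembly factors of complex I, and Atp5s and Atp5sl, which carry an ATP synthase name in the annotation and are now called Dmac2l and Dmac2. Ndufa4 stayed with complex I by its symbol, although its protein is now placed in complex IV. Cox7a1 was not analysed here, and Cox4i1, whose symbol the rule does not take, was counted with the partner genes below.

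The respiratory chain sits in the inner mitochondrial membrane. Complex I takes electrons from NADH and complex II from succinate, complex III passes them through cytochrome c, and complex IV hands them to oxygen. Complexes I, III and IV pump protons, and complex V, the ATP synthase, lets the protons back and makes ATP. All members described here are nuclear genes whose proteins are imported into mitochondria, and muscle is among the tissues with the highest demand for them. Several complex IV subunits exist as a form made in most tissues and a form made in heart and skeletal muscle, which rises as myoblasts mature into fibres.

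Total RNA was taken 48 h after transfection, and 100 ng per array was labelled. The 3 groups of 3 arrays were cells given an siRNA against Cugbp1, cells given an siRNA against Mbnl1, and cells given a control siRNA, all in the same serum-containing medium. Cugbp1 is the older name of Celf1, and both targets encode RNA-binding proteins that act on splicing and mRNA stability and are disturbed in myotonic dystrophy. Nothing in the labels ties the replicates to separate cultures, and the p-values below therefore reflect the spread among arrays of a group, possibly a technical one.

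The targeted genes were lower as labelled: Celf1 fell by 1.46 on the log2 scale after Cugbp1 siRNA, and Mbnl1 fell by 1.35 after Mbnl1 siRNA. Arrays of 1 group correlated at 0.990 or more over gene values (Pearson). The median intensity of all probe sets was 42.3 to 42.8 on the Cugbp1 siRNA arrays and 42.5 to 42.9 on the Mbnl1 siRNA arrays, against 43.6 to 43.8 on the control arrays. Of 8 myoblast markers all were above the filter, and of 10 myotube markers 7 were. Of 14 markers of blood, endothelial, epithelial and neural cells, 10 also passed the filter, at mean log2 values of 7.30 to 8.40 after Cugbp1 siRNA, 7.29 to 8.79 after Mbnl1 siRNA and 7.42 to 8.73 in controls. Of these 10, 6 fell after Cugbp1 siRNA (median over the 10 -0.24), against 12.7% of all genes tested (median 0.05). After Mbnl1 siRNA 5 fell (median over the 10 -0.18), against 14.6% of all genes tested (median 0.04). The falls included Csf1r and Krt5. The macrophage marker Cd68 rose by 0.49 after Mbnl1 siRNA (adjusted p = 0.000259), the largest change in this list, and was not called after Cugbp1 siRNA (-0.05). Between the siRNAs, Cd68 (-0.53) and Krt14 (-0.25) were lower after Cugbp1 siRNA. Their part in the results below was not tested. Passing the filter, set at log2 7.0, does not show that such cells were present in this cell line. In RNA from whole cultures, fewer cells of a kind and less RNA per cell cannot be told apart.

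Testing required a gene to have 3 or more probe sets whose mean was at or above log2 7.0, the 75th percentile over the whole array. Of the 82 members, 69 passed, with 3 to 20 probe sets each and a median of 6. The 13 that did not were Ndufa1, Ndufa4l2, Ndufb3, Ndufb4, Ndufc1, Cox5b, Cox6b2, Cox7b2, Cox7c, Cox8b, Cox8c, Atp5l and Atp5s. By complex, the test covered 32 members of complex I, both assembly factors, 4 of complex II, 7 of complex III, 9 of complex IV and 14 of complex V, and Atp5sl. The gene value is the log2 intensity summarised over those probe sets, and a change is a difference of log2 gene values. Gene values are not comparable between genes, since each probe has its own brightness. A gene was called when its p-value, adjusted over all 12646 genes tested, was under 0.05.

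After Cugbp1 siRNA, 22 of the 69 members rose against control and 0 fell. Complex I, its assembly factors and complex III held most of the rises, and complex IV held 1. The rises were small, 1.10-fold to 1.22-fold. Among all genes, 38.7% were called, 26% higher and 12.7% lower, so the members' share of rises (31.9%) was near that of all genes, while none of the members fell. The count of 0 falls is from limma with Benjamini-Hochberg adjustment; 2 members were lower at an unadjusted p under 0.05, and limma with an intensity trend called 1 lower. The median change was 0.10 over the 69 members and 0.05 over all genes tested. The arrays of the 2 groups did not overlap in 34 of the 69 members, 33 of them higher after Cugbp1 siRNA, against 48.8% of all genes.

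**Figure D1:**
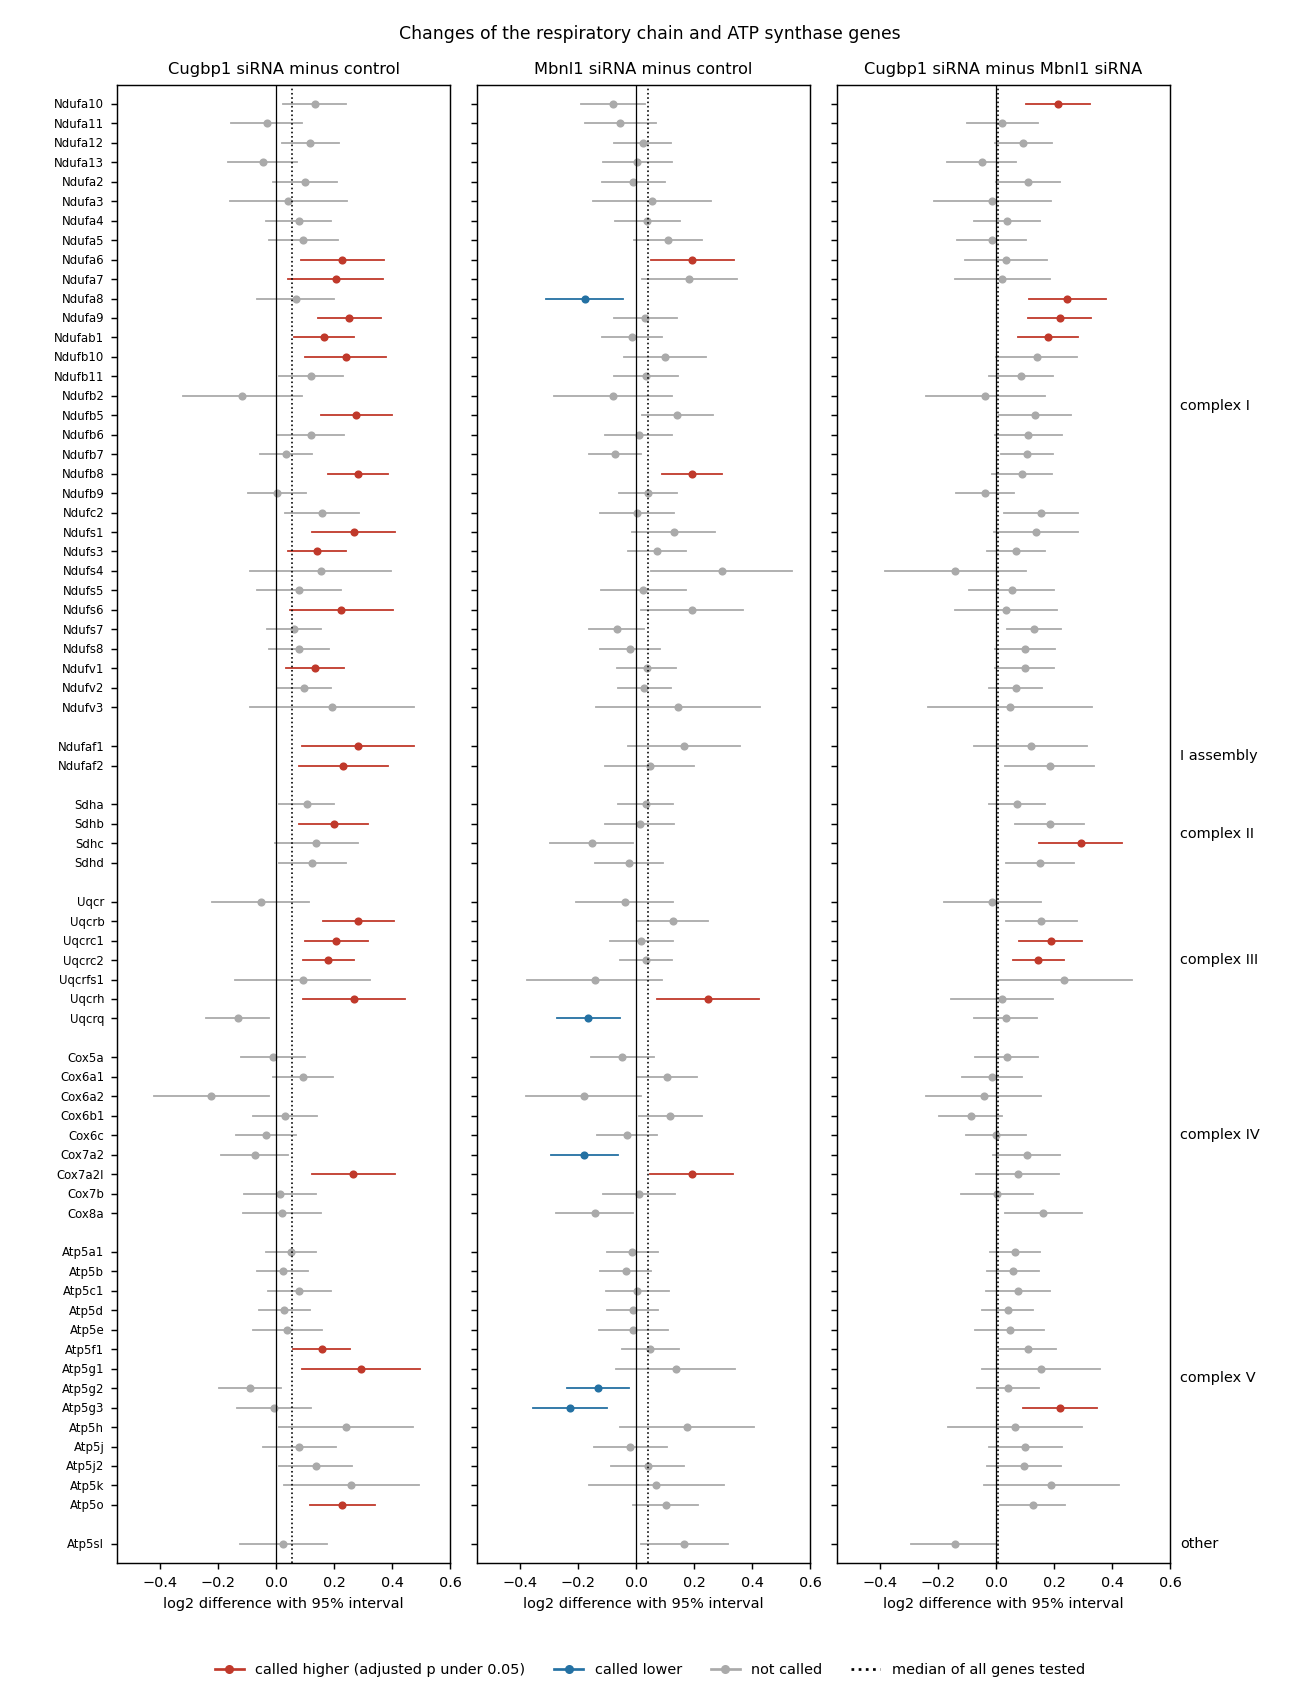
Difference of the gene values (log2, horizontal axis) with its 95% interval for the 69 tested members, by complex, in the 3 comparisons; red points are called higher, blue points called lower and grey points not called, and the dotted line is the median of all genes tested. In the left panel 22 members are red and none is blue, in the middle panel 4 are red and 5 blue, and in the right panel 8 are red.

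In complex I, 11 of 32 members rose after Cugbp1 siRNA, with a median of 0.12 over the complex. Ndufb8, an accessory subunit of the membrane arm, stood at 9.84, 9.80 and 9.70 on the Cugbp1 siRNA arrays and at 9.55, 9.48 and 9.47 on the controls (log2 intensity). Every Cugbp1 siRNA array lay above every control array, and the change was 0.28 (SE 0.05, adjusted p = 0.00187). All 8 of its probe sets above the filter were higher. Ndufb5, of the same arm, stood at 10.77, 10.58 and 10.61 after Cugbp1 siRNA and at 10.43, 10.36 and 10.34 in controls. Its groups did not overlap either, and it rose by 0.28 (SE 0.06, adjusted p = 0.00437). Ndufb10, also of the membrane arm, rose by 0.24, with 8.79, 8.72 and 8.81 after Cugbp1 siRNA against 8.52, 8.54 and 8.54 in controls.

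The arm of complex I that reaches into the matrix and oxidises NADH showed rises as well. Ndufs1, its large iron-sulfur subunit, stood at 9.15, 9.36 and 9.44 after Cugbp1 siRNA and at 9.06, 9.03 and 9.06 in controls. The Cugbp1 siRNA arrays all lay above the controls but spread more widely (SD 0.15 against 0.02), and the change was 0.27 (SE 0.07, adjusted p = 0.0106). Ndufa9, an accessory subunit where the arms join, stood at 10.30, 10.19 and 10.21 after Cugbp1 siRNA against 9.99, 9.98 and 9.97 in controls. It rose by 0.25 (SE 0.05, adjusted p = 0.00388), with all 10 probe sets higher. Ndufa6 (0.23), Ndufs6 (0.22), Ndufa7 (0.20), Ndufab1 (0.16), Ndufs3 (0.14) and Ndufv1 (0.13) also rose. Under the 20 alternatives run, the call was lost in 15 for Ndufa7, 14 for Ndufv1, 13 for Ndufs6 and 10 for Ndufs3. For Ndufa6 and Ndufab1 it was lost in 4 each. Ndufab1 is the mitochondrial acyl carrier protein, Ndufa6 the accessory subunit it binds, and Ndufv1 the subunit that binds NADH. The other 21 members were not called and ranged from -0.12 (Ndufb2) to 0.19 (Ndufv3).

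Both assembly factors rose, Ndufaf1 by 0.28 (SE 0.09, adjusted p = 0.0286) and Ndufaf2 by 0.23 (SE 0.07, adjusted p = 0.0249). They act while complex I is put together and are not part of the finished enzyme. Ndufaf1 stood at 8.40, 8.47 and 8.35 after Cugbp1 siRNA and at 8.29, 8.11 and 7.98 in controls, without overlap. Ndufaf2, measured by 3 probe sets, stood at 8.33, 8.55 and 8.58 and, in controls, at 8.15, 8.33 and 8.28, where the lowest Cugbp1 siRNA array was level with the highest control.

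In complex II, which is also the succinate dehydrogenase of the citric acid cycle, 1 of 4 members rose. Sdhb, the iron-sulfur subunit, stood at 10.41, 10.54 and 10.54 after Cugbp1 siRNA and at 10.24, 10.30 and 10.35 in controls, and rose by 0.20 (SE 0.05, adjusted p = 0.0169). The flavin-binding Sdha had a change of 0.10 and the membrane anchors Sdhc and Sdhd of 0.14 and 0.12, none of them called (adjusted p = 0.0783, 0.113 and 0.0835).

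In complex III, 4 of 7 members rose, with a median of 0.18 over the complex. Uqcrb, a small subunit next to the quinone-binding region, stood at 12.16, 12.21 and 12.12 after Cugbp1 siRNA and at 11.82, 11.87 and 11.95 in controls. The groups were clearly apart, and the change was 0.28 (SE 0.06, adjusted p = 0.00391). Both matrix-facing core proteins rose. Uqcrc1 stood at 10.44, 10.31 and 10.29 against 10.09, 10.18 and 10.15 in controls (change 0.21, adjusted p = 0.00932). Uqcrc2 stood at 11.20, 11.25 and 11.27 against 11.07, 11.03 and 11.09 in controls (change 0.18, adjusted p = 0.00704), and neither gene had overlapping groups. Uqcrh, the hinge protein that helps cytochrome c dock, rose by 0.27 (SE 0.08, adjusted p = 0.0239). Its values were 9.82, 9.95 and 9.82 after Cugbp1 siRNA and 9.78, 9.48 and 9.54 in controls, and 1 control array stood close to the Cugbp1 siRNA arrays. The Rieske protein gene Uqcrfs1 (0.09), Uqcr (now Uqcr11; -0.05) and Uqcrq (-0.13) were not called.

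In complex IV, 1 of 9 members rose after Cugbp1 siRNA, and the median change was 0.01; a difference from the other complexes was not tested. The member that rose was Cox7a2l, whose protein does not build the core of complex IV but tethers it to complex III in supercomplexes. It stood at 9.85, 9.65 and 9.72 after Cugbp1 siRNA and at 9.57, 9.47 and 9.39 in controls, a change of 0.27 (SE 0.06, adjusted p = 0.0105). The 8 other members ranged from -0.22 for Cox6a2 to 0.09 for Cox6a1.

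In complex V, 3 of 14 members rose and the median change was 0.08. Atp5g1, 1 of 3 genes that encode the same c subunit of the rotating ring, had the largest change of all members at 0.29 (SE 0.09, adjusted p = 0.0307). It rests on 3 probe sets and on a low control array: the values were 9.26, 9.09 and 9.30 after Cugbp1 siRNA and 8.71, 9.02 and 9.04 in controls. Without control replicate 1, or without Cugbp1 siRNA replicate 1 or 3, it was no longer called. Atp5o, the stalk subunit that confers oligomycin sensitivity, stood at 9.07, 9.09 and 9.17 after Cugbp1 siRNA and at 8.80, 8.93 and 8.92 in controls (change 0.23, adjusted p = 0.00703). Of its 5 probe sets, 1 passed the filter only through the siRNA arrays, where it was higher, as described further below. The Atp5o call was lost in 4 of the fits that left 1 array out. Atp5f1, the b subunit of the peripheral stalk (now Atp5pb), stood at 10.71, 10.77 and 10.78 against 10.66, 10.53 and 10.59 in controls (change 0.16, adjusted p = 0.0196). The catalytic head subunits Atp5a1 and Atp5b had changes of 0.05 and 0.02 and were not called.

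**Figure D2:**
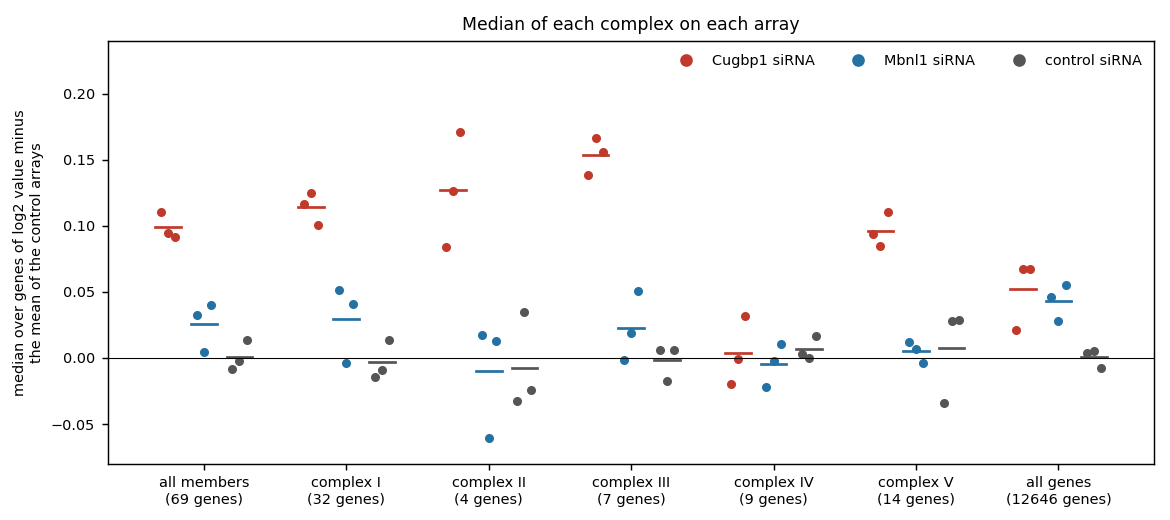
Median over the genes of each complex of the log2 value minus the mean of the 3 control arrays (vertical axis), with 1 point per array and a bar at the mean of each group; all genes tested are at the right. The Cugbp1 siRNA arrays stand at 0.10 to 0.12 in complex I and at 0.14 to 0.17 in complex III, while the 3 groups lie together in complex IV.

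The plot of medians by array shows how evenly the arrays of a group behaved. Over the 69 members, the median relative to the control mean was 0.09 to 0.11 on the Cugbp1 siRNA arrays and 0.00 to 0.04 on the Mbnl1 siRNA arrays, against -0.01 to 0.01 on the control arrays. Over all genes tested it was 0.02 to 0.07, 0.03 to 0.05 and -0.01 to 0.01 on the same arrays. The size of the shift against control moved with the scaling of the arrays. With each array centred on the median of all its probe sets, 34 members were called higher after Cugbp1 siRNA and 0 lower, and with each array centred on the median of the tested genes, an alternative chosen after the data were seen, 6 were called higher and 5 lower. Under those scalings the all-gene median was 0.09 and -0.03. Ndufa9, Ndufb5, Ndufb8, Ndufs1 and Uqcrb were called higher under all 20 alternatives run. Of the 22 calls after Cugbp1 siRNA, 14 were lost when 1 array or another was left out.

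**Figure D3:**
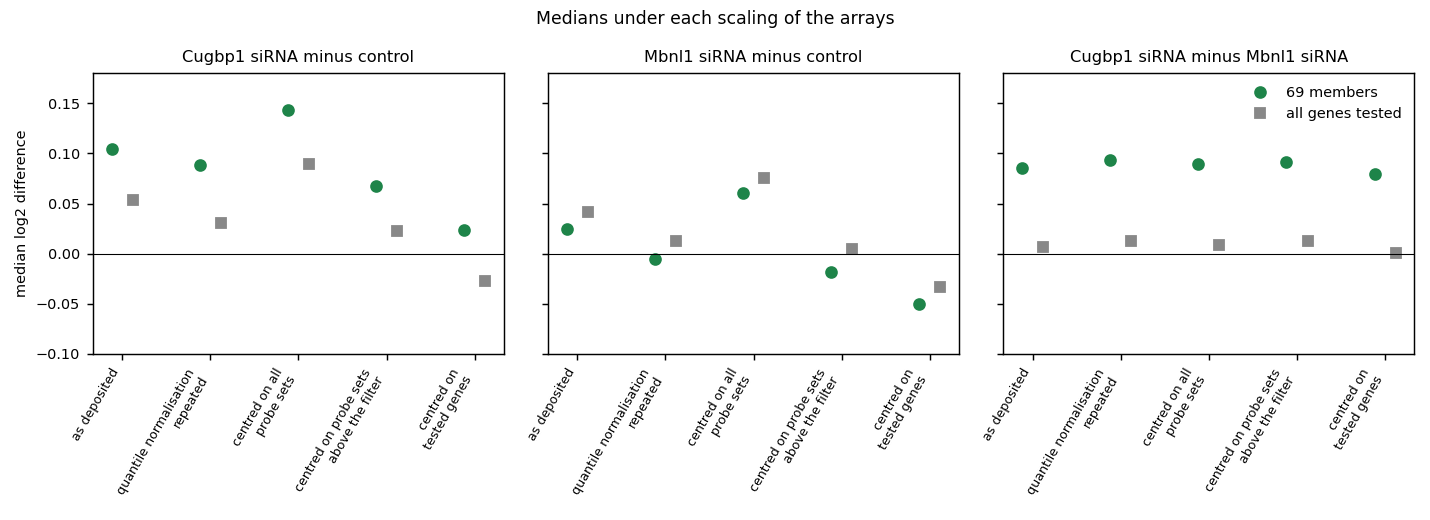
Median log2 difference (vertical axis) of the 69 members (green circles) and of all genes tested (grey squares) with the values as deposited and under 4 other scalings of the arrays, in the 3 comparisons. Against control both medians move together with the scaling; in the right panel the members stay at 0.08 to 0.09 and all genes at 0.00 to 0.01.

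Promoters were read because factors known to drive respiratory genes together bind short motifs near the start of transcription. Among these factors are NRF1, the ETS factor GABP, YY1 and the oestrogen-related receptors. Each promoter printed below holds a motif of these factors, so they are examples and do not represent all members. Of the members printed, only Cox8a was called in no comparison. The promoters of Atp5g1, Atp5o, Ndufb5 and Ndufb10, which rose after Cugbp1 siRNA, held none of these motifs. RefSeq promoters of assembly GRCm38.p6, from 250 bases before to 50 after the start, were matched by symbol for 70 members, with 76 promoters among 32851 in the table. Both strands were searched for the letters GCATGCGC (NRF1), CCGGAAG (ETS), AAGATGGC (YY1), AAGGTCA (oestrogen-related receptor) and GGGCGG (Sp1). No motif lies within another, but neighbouring matches can share end letters. Each sequence below runs 5′ to 3′ on the strand of its gene, from 90 bases before the start to 30 after it, with matches to the first 4 motifs in capitals.
Sdhb, chr4:140961181-140961300 (plus strand): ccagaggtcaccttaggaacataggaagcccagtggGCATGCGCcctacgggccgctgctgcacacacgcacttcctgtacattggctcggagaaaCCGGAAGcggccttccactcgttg
Ndufa6, chr15:82354262-82354381 (minus strand): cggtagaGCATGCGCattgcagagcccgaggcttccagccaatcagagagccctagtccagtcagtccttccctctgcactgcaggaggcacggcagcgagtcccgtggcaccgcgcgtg
Uqcrh, chr4:116075041-116075160 (minus strand): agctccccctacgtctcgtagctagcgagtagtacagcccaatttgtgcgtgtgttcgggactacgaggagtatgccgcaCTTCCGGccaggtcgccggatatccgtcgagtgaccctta
Atp5f1, chr3:105959234-105959353 (minus strand): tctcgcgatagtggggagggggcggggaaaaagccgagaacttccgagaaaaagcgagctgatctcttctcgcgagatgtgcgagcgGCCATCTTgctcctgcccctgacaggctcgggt
Atp5g3, chr2:73911297-73911416 (minus strand): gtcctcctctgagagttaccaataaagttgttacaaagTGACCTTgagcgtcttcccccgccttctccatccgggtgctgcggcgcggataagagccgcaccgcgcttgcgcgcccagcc
Cox8a, chr19:7217587-7217706 (minus strand): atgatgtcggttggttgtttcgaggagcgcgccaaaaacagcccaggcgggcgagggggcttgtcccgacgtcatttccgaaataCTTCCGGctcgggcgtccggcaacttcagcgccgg

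Sdhb holds the NRF1 and ETS letters, Ndufa6 holds the NRF1 letters, Uqcrh and Cox8a hold the ETS letters on the other strand, Atp5f1 holds the YY1 letters on the other strand, and Atp5g3 holds the oestrogen-related receptor letters on the other strand. Over all 76 member promoters, the NRF1 motif was present in 13.2%, against 2.71% of all promoters of the same length. The ETS motif was present in 22.4% against 8.86%, the YY1 motif in 15.8% against 2.75%, the oestrogen-related receptor motif in 10.5% against 4.72%, and the Sp1 motif in 42.1% against 35.7%. Between the 20 promoters of members that rose after Cugbp1 siRNA and the 45 of tested members that were not called, the shares were 15% and 13.3% for NRF1, 20% and 26.7% for ETS, 20% and 15.6% for YY1, and 45% and 40% for Sp1. The oestrogen-related receptor motif was in 0 of the first and 13.3% of the second, which is 0 of 20 promoters and 6 of 45. These are letter matches and say nothing of whether a factor was bound.

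After Mbnl1 siRNA, 4 of the 69 members rose and 5 fell against control, where 41.5% of all genes were called, 26.9% higher and 14.6% lower. The median change was 0.02 over the members and 0.04 over all genes. The groups did not overlap in 20 members, 10 higher and 10 lower, against 57.5% of all genes. These counts share the control arrays with those of Cugbp1 siRNA. The split depended on scaling: 12 rose and 1 fell with arrays centred on all probe sets, and 0 rose and 12 fell with arrays centred on the tested genes. Under that last scaling 6 rose and 5 fell after Cugbp1 siRNA. No test compared the responses to the siRNAs over the members as a set, and single members are compared further below.

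The rises were in Uqcrh, Ndufb8, Ndufa6 and Cox7a2l, and all 4 also rose after Cugbp1 siRNA. Uqcrh stood at 9.94, 9.77 and 9.82 after Mbnl1 siRNA and at 9.78, 9.48 and 9.54 in controls, with 1 control array level with the lower Mbnl1 siRNA arrays (change 0.25, SE 0.08, adjusted p = 0.0299). Ndufb8 stood at 9.68, 9.68 and 9.70 after Mbnl1 siRNA against 9.55, 9.48 and 9.47 in controls (change 0.19, SE 0.05, adjusted p = 0.00903), without overlap. Ndufa6 stood at 9.81, 9.68 and 9.89 and, in controls, at 9.54, 9.64 and 9.62 (change 0.19, adjusted p = 0.0344). Cox7a2l stood at 9.65, 9.61 and 9.74 and, in controls, at 9.57, 9.47 and 9.39 (change 0.19, adjusted p = 0.0372).

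The falls were in Atp5g3, Cox7a2, Ndufa8, Uqcrq and Atp5g2. Atp5g3, another c subunit gene, stood at 12.12, 12.11 and 12.10 after Mbnl1 siRNA and at 12.28, 12.36 and 12.37 in controls. The Mbnl1 siRNA arrays were almost level with each other and all below the controls, and the gene fell by 0.23 (SE 0.06, adjusted p = 0.0103), with all 6 probe sets lower. It was the only member called under all 20 alternatives in this comparison. Cox7a2, the complex IV subunit VIIa of most tissues, stood at 10.14, 10.14 and 10.18 after Mbnl1 siRNA against 10.33, 10.32 and 10.35 in controls, and fell by 0.18 (SE 0.05, adjusted p = 0.0201). Ndufa8, an accessory subunit of complex I with a twin disulfide fold, stood at 10.54, 10.45 and 10.54 against 10.59, 10.77 and 10.71 in controls (change -0.18, adjusted p = 0.0364). Uqcrq, a small subunit of complex III, stood at 10.99, 10.91 and 10.97 against 11.08, 11.09 and 11.20 in controls (change -0.17, adjusted p = 0.0209). Atp5g2 stood at 11.79, 11.69 and 11.73 against 11.84, 11.83 and 11.92 in controls (change -0.13, adjusted p = 0.0472). By complex, 2 members of complex I rose and 1 fell, 1 rose and 1 fell in each of complexes III and IV, and 2 fell in complex V; the complex II members and the assembly factors were not called.

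**Figure D4:**
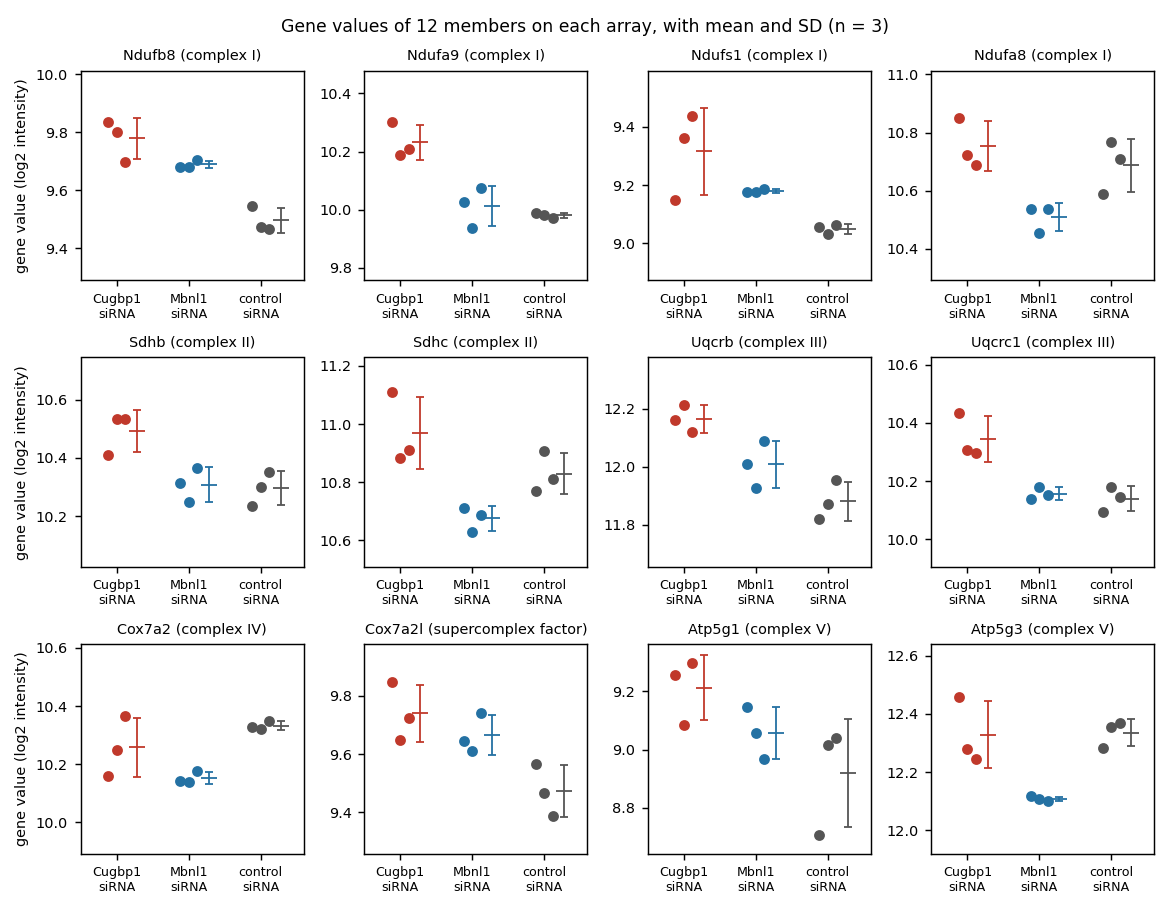
Gene value (log2 intensity, vertical axis) of 12 members on each array, with the mean and SD of each group beside the points (n = 3); every panel spans the same height. Ndufa9, Uqcrc1 and Sdhb are higher on the Cugbp1 siRNA arrays than on both other groups, Atp5g3 is lower on the Mbnl1 siRNA arrays, and Ndufb8 is above control after both siRNAs.

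Set directly against each other, the siRNAs differed in 8 members, all higher after Cugbp1 siRNA than after Mbnl1 siRNA (limma with Benjamini-Hochberg; 21 were higher and 0 lower at an unadjusted p under 0.05). Among all genes 9.34% were called in this comparison, 4.27% higher and 5.07% lower. The median difference was 0.09 over the members and 0.01 over all genes, and 57 of the 69 members had a positive difference, as did 6667 of all 12646 genes. By complex these were 26 of 32 in complex I, 4 of 4 in complex II, 6 of 7 in complex III, 5 of 9 in complex IV (median 0.00, no calls) and 14 of 14 in complex V, with both assembly factors positive and Atp5sl negative. The groups did not overlap in 27 members, all higher after Cugbp1 siRNA, against 29.5% of all genes. The difference is taken without the control arrays, but they enter the filter, the gene summary and the shared estimate of the spread. With only the compared groups in the fit, 2 members were called. The median difference was 0.08 to 0.09 under every scaling tried.

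Sdhc, a membrane anchor of complex II, had the largest difference. It stood at 11.11, 10.88 and 10.91 after Cugbp1 siRNA and at 10.71, 10.63 and 10.69 after Mbnl1 siRNA, with the controls at 10.77, 10.91 and 10.81. The siRNA groups did not overlap, and the difference was 0.29 (SE 0.06, adjusted p = 0.0198); against control neither change was called. Among complex I genes, 3 accessory subunits and the acyl carrier protein differed. Ndufa8 differed by 0.25 (SE 0.06, adjusted p = 0.0307), with 10.85, 10.72 and 10.69 after Cugbp1 siRNA and 10.54, 10.45 and 10.54 after Mbnl1 siRNA. Ndufa9 differed by 0.22 (SE 0.05, adjusted p = 0.0201), with 10.03, 9.94 and 10.07 after Mbnl1 siRNA beside the Cugbp1 siRNA values given above. Ndufa10, which sits on the membrane arm, differed by 0.21 (SE 0.05, adjusted p = 0.0247), with 11.02, 10.93 and 10.84 after Cugbp1 siRNA and 10.73, 10.73 and 10.70 after Mbnl1 siRNA. For Ndufab1 the difference was 0.18 (adjusted p = 0.0401). It stood at 10.04, 10.16 and 10.10 after Cugbp1 siRNA and at 9.93, 9.89 and 9.94 after Mbnl1 siRNA, without overlap.

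The complex III core proteins and the c subunit gene Atp5g3 made up the rest. Uqcrc1 differed by 0.19 (SE 0.05, adjusted p = 0.0381), with 10.14, 10.18 and 10.15 after Mbnl1 siRNA, close to the controls. Uqcrc2 differed by 0.15 (SE 0.04, adjusted p = 0.0470), with 11.10, 11.08 and 11.10 after Mbnl1 siRNA. Atp5g3 differed by 0.22 (SE 0.06, adjusted p = 0.0386), with 12.46, 12.28 and 12.25 after Cugbp1 siRNA, a spread that took in the controls. The 8 calls depended on single arrays: without Mbnl1 siRNA replicate 1 or 2 there were 0 calls. Without Mbnl1 siRNA replicate 3 there were 2, and only 1 of the 8 was among them. None of the 8 calls held under all 20 alternatives run. Of the 18 members that rose after Cugbp1 siRNA and were not called after Mbnl1 siRNA, 4 were called between the siRNAs, so for the other 14 a difference between the siRNAs was not shown.

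The 3 genes for the c subunit gave different values side by side. The changes after Cugbp1 siRNA were 0.29 for Atp5g1, -0.09 for Atp5g2 and -0.01 for Atp5g3, and after Mbnl1 siRNA 0.14, -0.13 and -0.23 for the same genes. Their mature proteins are the same, so the summed supply of subunit cannot be read from these values, which are not comparable as levels.

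Among the complex IV isoforms, the muscle form Cox6a2 passed the filter with 3 probe sets, at 8.58, 8.54 and 8.63 after Cugbp1 siRNA, 8.72, 8.60 and 8.55 after Mbnl1 siRNA and 8.91, 8.93 and 8.57 in controls. Its changes of -0.22 and -0.18 were not called (adjusted p = 0.0696 and 0.127), and 1 control array lay within the range of the siRNA arrays. Its partner in most tissues, Cox6a1, had changes of 0.09 and 0.11, also not called. Cox7b, Cox8a, Cox6b1 and Ndufa4 were not called in any comparison, with changes of 0.01, 0.02, 0.03 and 0.08 after Cugbp1 siRNA and 0.01, -0.14, 0.12 and 0.04 after Mbnl1 siRNA. The tissue-restricted forms Cox8b, Cox6b2, Cox7b2, Cox8c and Ndufa4l2 had fewer than 3 probe sets above the filter, none at all for Cox7b2 and Ndufa4l2. With 1 probe set accepted, Cox8c fell by 0.37 after Cugbp1 siRNA (adjusted p = 0.0210) and by 0.41 after Mbnl1 siRNA (adjusted p = 0.01225), and Cox5b fell by 0.29 after Mbnl1 siRNA (adjusted p = 0.0196). No other member that had failed the filter was called in that setting, with Ndufc1 at 0.53 and 0.56 (SE 0.23).

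Single probe sets were then set against the value of their own gene on the same array, a measure of exon usage, in 509 probe sets of 62 members with at least 4 probe sets above the filter. Against control, 10 probe sets in 9 genes departed from their gene after Cugbp1 siRNA, 7 lower and 3 higher. That is 1.96% of the members' probe sets, against 3.75% of all 158713 tested. After Mbnl1 siRNA 26 probe sets in 18 genes departed, 15 lower and 11 higher, 5.11% against 6.98% of all tested. Of these, 9 probe sets were called after both siRNAs, in comparisons that share the control arrays, and all 9 went the same way in both. Between the siRNAs 0 were called (limma with Benjamini-Hochberg; 15 at an unadjusted p under 0.05, and 0 by limma's diffSplice), against 0.0277% of all tested. No coordinates of the probe sets were used, so which exon or transcript end each one reads was not determined.

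**Figure D5:**
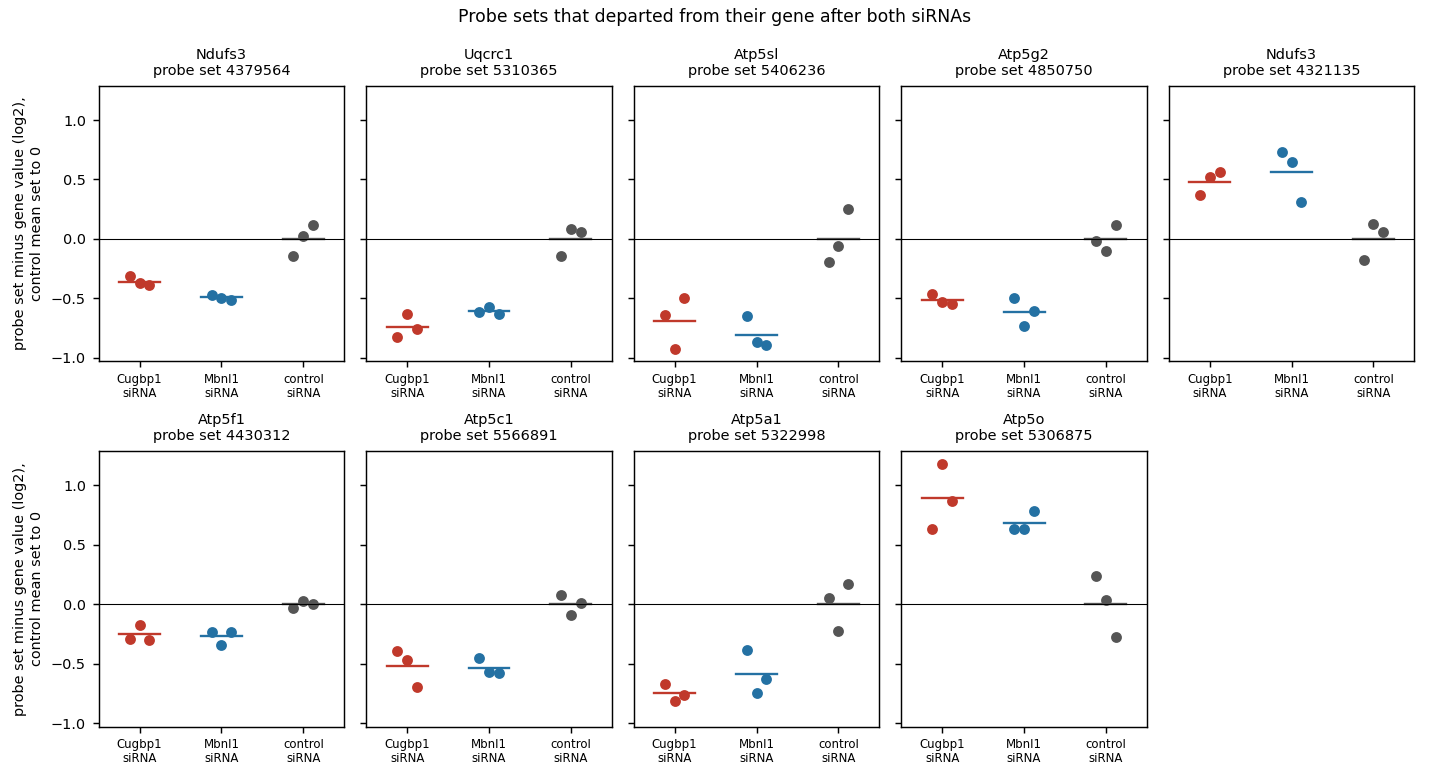
Log2 value of a probe set minus the value of its gene on the same array, with the control mean set to 0 (vertical axis), for the 9 probe sets called after both siRNAs; points are arrays and bars group means. The points after either siRNA lie on the same side of the control points in each of the 9 panels.

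In Uqcrc1, whose gene value rose after Cugbp1 siRNA, probe set 5310365 went the other way. Relative to the gene it stood at -0.32, -0.13 and -0.25 after Cugbp1 siRNA, -0.10, -0.07 and -0.12 after Mbnl1 siRNA and 0.37, 0.59 and 0.56 in controls (log2). It departed by -0.74 (SE 0.09, adjusted p = 0.00362) after Cugbp1 siRNA and by -0.61 (adjusted p = 0.00468) after Mbnl1 siRNA, and was called in all 14 alternative settings for both. In Ndufs3, a core subunit of the arm that binds quinone, 2 probe sets departed in opposite directions. Probe set 4379564 stood at 1.97, 1.91 and 1.89 relative to its gene after Cugbp1 siRNA, 1.82, 1.79 and 1.77 after Mbnl1 siRNA and 2.14, 2.31 and 2.40 in controls. Its departures were -0.36 (adjusted p = 0.0214) and -0.49 (adjusted p = 0.00391). Probe set 4321135 departed by 0.48 and 0.56 (adjusted p = 0.0469 and 0.0187; called in 2 and 11 of the 14 alternative settings), and another one, 4375661, by 0.57 after Mbnl1 siRNA.

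In Atp5sl, probe set 5406236 departed by -0.69 after Cugbp1 siRNA and by -0.80 after Mbnl1 siRNA (adjusted p = 0.0233 and 0.00798). It stood at 0.00, -0.28 and 0.15 after Cugbp1 siRNA, -0.01, -0.23 and -0.25 after Mbnl1 siRNA and 0.45, 0.58 and 0.89 in controls, without overlap between either siRNA and control. In the ATP synthase genes, probe sets departed after both siRNAs in Atp5g2 (-0.52 and -0.61), Atp5a1 (-0.75 and -0.59), Atp5c1 (-0.52 and -0.53), Atp5f1 (-0.25 and -0.27) and Atp5o (0.89 and 0.68). The Atp5sl call held in 11 of the 14 alternative settings after Cugbp1 siRNA and in all 14 after Mbnl1 siRNA, and that of probe set 4379564 of Ndufs3 in 10 and 14. In the ATP synthase genes after Cugbp1 siRNA the call held in 3 of the 14 alternative settings for Atp5g2, in 11 for Atp5a1, in 4 for Atp5c1, in 1 for Atp5f1, and in 8 of 10 for Atp5o. After Mbnl1 siRNA it held in 11 for Atp5g2, 9 for Atp5a1, 8 for Atp5c1, 8 for Atp5f1, and in 4 of 10 for Atp5o. The Atp5o probe set stood below its gene value, at -1.87, -1.32 and -1.64 after Cugbp1 siRNA, -1.87, -1.87 and -1.71 after Mbnl1 siRNA and -2.26, -2.47 and -2.78 in controls. On the control arrays its intensity lay under the filter of log2 7.0. It passed only through the siRNA arrays, where it was higher, so its calls are no independent support for a rise. It was tested in only 10 of the 14 alternative settings. Ndufs1 had a probe set at 0.57 after Cugbp1 siRNA and another at -0.30 after Mbnl1 siRNA, called in 4 and 7 of the 14 settings. Probe sets called after Mbnl1 siRNA and not after Cugbp1 siRNA were also in Atp5a1 (0.34), Atp5f1 (-0.38), Uqcrb (0.92, 0.78 and -0.28), Uqcrh (0.99), Ndufab1 (0.69 and -0.45), Ndufa6 (-0.62), Ndufb7 (0.60), Sdha (0.51), Cox6c (0.37 and -0.50), Cox6a1 (-0.28) and Cox6b1 (-0.20); each was called in 1 to 12 of the 14 alternative settings, and none of these differed between the siRNAs past the threshold. The number of calls depended on the arrays: it was 2 after Cugbp1 siRNA without Cugbp1 siRNA replicate 2 or 3, and 5 after Mbnl1 siRNA without Mbnl1 siRNA replicate 3.

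Genes that work with the respiratory chain were described from lists chosen by function. Of 40 tested partners and assembly factors (cytochromes c and c1, Cox4i1, and genes for haem and copper delivery and other assembly steps), 17 rose and 0 fell after Cugbp1 siRNA (median 0.13), and 10 rose and 2 fell after Mbnl1 siRNA (median 0.06). That is 42.5% called after Cugbp1 siRNA, against 38.7% of all genes, and 30% after Mbnl1 siRNA, against 41.5% of all genes. The largest changes after Cugbp1 siRNA were in Cox19, a copper-handling assembly factor of complex IV (0.54), Cycs, which is cytochrome c (0.42), and Nubpl, an iron-sulfur assembly factor of complex I (0.38). After Mbnl1 siRNA they were in Cox18 (0.43), Cox19 (0.39) and Cmc1 (0.38), all of them assembly factors of complex IV, and the falls were in Ecsit (-0.22) and Bcs1l (-0.20). Between the siRNAs 4 were higher after Cugbp1 siRNA, Bcs1l (0.26), Coa7 (0.24), Cyc1 (0.21) and Cox10 (0.20), and Uqcc2 was lower (-0.20).

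Of 22 regulators of mitochondrial biogenesis, 8 rose and 1 fell after Cugbp1 siRNA, and 9 rose and 2 fell after Mbnl1 siRNA. The shares called, 40.9% and 50%, stand beside 38.7% and 41.5% of all genes, and the first is near that of all genes. Ppargc1a, the coactivator PGC-1 alpha, rose by 1.00 and 0.61 after Cugbp1 siRNA and Mbnl1 siRNA, and the difference of 0.39 was called (adjusted p = 0.0182). Ssbp1, which coats single-stranded mitochondrial DNA, rose by 0.43 and 0.34, and Tefm, an elongation factor of mitochondrial transcription, by 0.38 and 0.21. Tfb1m, a methyltransferase of mitochondrial ribosomal RNA, rose by 0.26 and 0.45. Ppara, a nuclear receptor of fatty acid oxidation, fell by 0.22 and 0.26, and Polrmt, the mitochondrial RNA polymerase, fell by 0.17 after Mbnl1 siRNA. Between the siRNAs Ppargc1a and Polrmt were higher after Cugbp1 siRNA and Tfb1m was lower. Pyruvate dehydrogenase and the citric acid cycle feed the chain with electrons. Of 18 genes of these and of pyruvate carboxylase (Pcx), 10 rose and 0 fell after Cugbp1 siRNA (median 0.18), led by Suclg2 (0.45), Dld (0.33) and Pcx (0.27). After Mbnl1 siRNA 4 rose, Dld (0.35), Suclg2 (0.33), Pdha1 (0.23) and Sucla2 (0.21), and Ogdh fell by 0.13 (median 0.04). The shares called were 55.6% after Cugbp1 siRNA and 27.8% after Mbnl1 siRNA, beside the same shares of all genes. Between the siRNAs 3 differed, Pcx by 0.37, Idh3g by 0.22 and Ogdh by 0.15, all higher after Cugbp1 siRNA.

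Markers of muscle cell state were also read, and their part in the results was not tested. Of 8 myoblast markers, 3 rose after Cugbp1 siRNA (Cdh15 by 0.32, Ncam1 by 0.31 and Myod1 by 0.30), and after Mbnl1 siRNA Ncam1 rose by 0.30 and Myf5 fell by 0.28. Of 7 myotube markers, Mymk (0.54) and Myh3 (0.36) rose and Actn2 (-0.43) fell after Cugbp1 siRNA, and Actn2 fell by 0.33 after Mbnl1 siRNA. The shares called were 37.5% and 25% of the myoblast markers and 42.9% and 14.3% of the myotube markers after Cugbp1 siRNA and Mbnl1 siRNA. Among all genes 38.7% and 41.5% were called. The markers' shares were thus near that of all genes after Cugbp1 siRNA and smaller after Mbnl1 siRNA. With 8 and 7 genes these shares rest on few calls, and a difference from all genes was not tested. Many subunit genes have processed copies elsewhere in the genome, and whether a probe set also reads such a copy was not tested.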

How the data were processed

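Total RNA of C2C12 cells was measured on 9 exon arrays, 3 per siRNA group, grouped and numbered from the sample titles. Per the submitters' processing notes, the intensity values deposited by the authors, which are linear, came from RMA run in Expression Console (Affymetrix); mm9 is the build named there, and no software version is stated. RMA subtracts background, sets the arrays to 1 distribution and summarises probes. The deposited probe set values still had a higher median on the control arrays than on the siRNA arrays. Changes against control therefore depend on the scaling of the arrays. Arrays have no sequencing depth, and their number limits the precision.

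Values were log2-transformed. Probe sets were named from the platform annotation (a single symbol for 316997, several for 6571, none for 871987; 25 probe sets that name a member among several symbols were left out), and 4213 symbols, 4 of them members, were updated through RefSeq synonyms (GRCm38.p6). The filter on probe set means (75th percentile, log2 7.0, intensity 128) kept 298889 probe sets, 545 of them of members. Genes with at least 3 were summarised by Tukey median polish and fitted in limma 3.58.1 (R 4.3.3) with the 3 group means as coefficients and all 9 arrays in 1 fit, eBayes and Benjamini-Hochberg over 12646 genes. Exon usage, the probe set minus its gene value, was fitted likewise with a variance trend over 158713 probe sets of 11374 genes. Both steps were tested on simulated data. Promoters were read from a RefSeq table and searched for exact letters on both strands.

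The members, the 6 gene lists and the tests were chosen with earlier results of these data known. Named were the 10 members with the largest called change in each comparison against control, the 10 with the smallest p-value between the siRNAs, members with exon usage calls, complex II, the tissue-specific isoforms with their partners, and the 3 largest called changes per list; members that complete a count of calls were also named. Alternatives were the scaling, the filter, the minimum of probe sets, the summary, the variance model, the groups in the fit, a replicate block and each array left out.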

Additional observations from a re-analysis of the deposited data

Results flagged for a closer look

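The 8 members below were called in the test of the difference itself (Cugbp1 siRNA minus Mbnl1 siRNA, limma with Benjamini-Hochberg adjustment over all genes). Of these calls, 0 held under all 20 alternatives run, and each of the 8 was lost when 1 array or another was left out. The log2 differences were 0.29 for Sdhc, 0.25 for Ndufa8, 0.22 for Ndufa9, 0.22 for Atp5g3, 0.21 for Ndufa10, 0.19 for Uqcrc1, 0.18 for Ndufab1 and 0.15 for Uqcrc2. In Ndufa9, Uqcrc1, Uqcrc2 and Ndufab1 the values after Mbnl1 siRNA lay close to control and those after Cugbp1 siRNA above it. In Ndufa8 and Atp5g3 the values after Cugbp1 siRNA overlapped the controls and those after Mbnl1 siRNA lay below them. Sdhc and Ndufa10 were called against control after neither siRNA. Groups of 3 arrays were not searched for outlying arrays.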

How the results depend on the processing

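Against control, the counts moved with the scaling of the arrays. With arrays centred on all probe sets, 34 members were called higher and 0 lower after Cugbp1 siRNA, and 12 higher and 1 lower after Mbnl1 siRNA. With quantile normalisation repeated it was 18 and 1, and 1 and 6; with arrays centred on the probe sets above the filter, chosen after the data were seen, 16 and 1, and 1 and 8; with arrays centred on the tested genes, also chosen later, 6 and 5, and 0 and 12. The median change in this order was 0.14, 0.089, 0.067 and 0.023 after Cugbp1 siRNA, and 0.061, -0.0050, -0.018 and -0.050 after Mbnl1 siRNA. Lower calls after Cugbp1 siRNA were 3 without a filter, 1 with a filter at the median, 1 with at least 1 probe set per gene, 2 with the mean of the probe sets (median change 0.13) and 1 with an intensity trend in limma. After Mbnl1 siRNA, members called higher numbered 1 with at least 1 probe set, 10 with the mean, 11 with the trend and 8 with only the compared groups in the fit, and members called lower numbered 2 without a filter.

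Between the siRNAs the calls fell to 1 without a filter, 3 with a filter at the median, 1 with at least 1 probe set and 2 with only the compared groups in the fit. Exon usage calls were 5 and 10 after Cugbp1 siRNA and Mbnl1 siRNA with a filter at the median, and 32 and 55 with diffSplice. After the mean of each group was subtracted, the correlation of same-numbered arrays was -0.10 to 0.12, and 1 of 9 pairs was over 0.1. With 3 arrays per group, these values cannot settle whether the replicate numbers pair the arrays. With the number as a replicate block, 19 members were called higher and 0 lower after Cugbp1 siRNA, 6 and 3 after Mbnl1 siRNA, and 3 between the siRNAs, with 6, 21 and 0 exon usage calls.

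With each array left out in turn, members called higher after Cugbp1 siRNA numbered 13 (without control replicate 1) to 21, and 14 without Cugbp1 siRNA replicate 2; members called lower were 0 to 1 (1 without control replicate 1 or 3). After Mbnl1 siRNA the ranges were 1 (without Mbnl1 siRNA replicate 1) to 9 (without Cugbp1 siRNA replicate 1) higher and 1 (without Mbnl1 siRNA replicate 3) to 6 lower, with 2 lower without control replicate 3 or Mbnl1 siRNA replicate 2 and 3 without control replicate 1 or 2. Between the siRNAs it was 0 to 11, with 5 without control replicate 1 or 3 or Cugbp1 siRNA replicate 3, and 3 without Cugbp1 siRNA replicate 2. The medians ranged from 0.09 to 0.11, from -0.0031 (without Mbnl1 siRNA replicate 3) to 0.033 and from 0.07 to 0.10. Exon usage calls ranged from 2 to 13, 5 to 31 and 0 to 0, with 4 to 6 after Cugbp1 siRNA without any Mbnl1 siRNA array, control replicate 2 or 3 or Cugbp1 siRNA replicate 1, and 6, 7, 10 and 17 after Mbnl1 siRNA without Mbnl1 siRNA replicate 2, Mbnl1 siRNA replicate 1, control replicate 3, and control replicate 2 or Cugbp1 siRNA replicate 3. Fewer arrays widen the errors. No called change reversed its sign under these alternatives; the cause of the other shifts was not tested.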

Other observations

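The direction can also be counted over single probe sets. Of the 545 member probe sets above the filter, 408 (74.9%) were higher in the mean of the Cugbp1 siRNA arrays than in the mean of the controls, against 63.3% of all 168803 named probe sets above the filter. For Mbnl1 siRNA it was 293 (53.8%) of the member probe sets, against 61.8% of all. Probe sets of 1 gene share its RNA and are not replicates, and no test was made on these shares.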
